A study of Mus musculus with 12 samples.

Results

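The type I interferon response genes described here are 42 mouse genes, taken by symbol from a named list out of the 24444 gene symbols in each of the 2 deposited tables. All 42 were present in both tables, and all 42 passed the filter on low counts in every comparison. Expression was measured by stranded mRNA sequencing of bulk bone marrow cells from C57BL/6 mice, in 12 libraries that fell into 4 groups of 3. The aged_WT (Hopx-wildtype) and aged_KO (Hopx-knockout) groups carry the label aged and an age of 18 weeks, and neither has added MN1. The MN1_WT (Hopx-wildtype) and MN1_KO (Hopx-knockout) groups are labelled with MN1 overexpression and an age of 16 weeks. Hopx encodes an atypical homeodomain cofactor without DNA binding of its own, and MN1 is a transcriptional coregulator that drives myeloid leukaemia when overexpressed in marrow cells. The labels say neither how Hopx was deleted, nor which promoter or vector supplied MN1, nor how many host cells remained. They also do not say whether the libraries of a group came from separate animals, so p-values measure the spread between these samples, which may be technical. MN1 label, age and table coincide, so they cannot be told apart in any comparison between the aged and the MN1 groups.

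Type I interferons (interferon beta and the interferon alphas) bind a receptor made of IFNAR1 and IFNAR2, whose kinases phosphorylate STAT2. Together with IRF9, STAT2 is part of the complex ISGF3, which binds the interferon-stimulated response element (ISRE) in the promoters of its target genes. The products sense foreign nucleic acid, block translation, tether or degrade viruses, and feed back on the pathway: IRF7 amplifies interferon production and USP18 dampens receptor signalling. Plasmacytoid dendritic cells are the strongest known producers of type I interferon, and in marrow the response acts on haematopoietic stem cells, lymphoid precursors and myeloid cells.

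The promoter stretches below are shown for members that differ in how they behaved in these libraries. All but that of Xaf1 hold a match to the core of the ISRE. RefSeq windows from 250 bases before to 50 after the start (GRCm38.p6) matched 31 of the 42 genes. The ISRE core was searched as GAAANNGAAA on either strand, TTTCNNTTTC being its reverse complement, and capitals mark every match, overlapping ones merged. The stretches are 80 bases long, read 5′ to 3′ on the gene's strand, and lie before the start: Bst2 at chr8:71537552-71537631 (minus strand), Isg15 at chr4:156200840-156200919 (minus), Stat2 at chr10:128270248-128270327 (plus), Ifit1 at chr19:34640769-34640848 (plus), Ifit3 at chr19:34583372-34583451 (plus) and Xaf1 at chr11:72301549-72301628 (plus).
Bst2: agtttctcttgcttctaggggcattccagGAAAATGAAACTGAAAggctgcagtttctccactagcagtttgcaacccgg
Isg15: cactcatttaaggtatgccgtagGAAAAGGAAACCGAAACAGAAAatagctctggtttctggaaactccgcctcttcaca
Stat2: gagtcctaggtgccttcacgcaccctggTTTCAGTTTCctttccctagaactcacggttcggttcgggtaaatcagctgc
Ifit1: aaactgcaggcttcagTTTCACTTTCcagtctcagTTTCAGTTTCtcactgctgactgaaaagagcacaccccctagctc
Ifit3: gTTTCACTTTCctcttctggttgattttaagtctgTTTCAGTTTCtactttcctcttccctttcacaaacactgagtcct
Xaf1: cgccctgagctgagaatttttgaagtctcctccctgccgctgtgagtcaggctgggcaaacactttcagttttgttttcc
Bst2 held 2 overlapping matches, the nearer beginning 124 bases before the start, and Isg15 held 3, the nearest at 66 bases. Ifit1 and Ifit3 each held 2, and the corresponding 80 bases of Ifit3b were the same as those of Ifit3, with 0 differing bases. Xaf1 held no match in its window, which says only that these letters are absent there. The core was present in 15 of the 31 matched genes (48.4%), against 3.99% of 27025 genes with a RefSeq window. The gamma-interferon activated site, searched as TTCNNNGAA, was present in 5 of the 31 (16.1%), against 9.55% of all. A match is a description of the letters and not a measured binding site.

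Libraries held 16544407 to 28409046 counts. Levels below are CPM (a gene's counts relative to the library total, scaled by TMM over the 12 libraries), and deposited TPM, a measure that allows for transcript length, is used only to compare levels between genes. Hopx stood at 15 to 35.1 CPM in aged_WT, at most 0.141 in aged_KO, 11.8 to 27 in MN1_WT and 2.84 to 3.12 in MN1_KO. Mn1 went against the label in part of the MN1_WT group: it stood at 0.383 and 0.158 CPM in replicates 2 and 4, within the 0.0859 to 1.25 of the aged libraries, and at 30.5 in replicate 3, beside 22.2 to 41.1 in MN1_KO. Results that use MN1_WT are therefore given also with replicate 3 as its only library, whose spread is then assumed to be like that of the other groups. The libraries labelled MN1_WT also held more transcript from Y-linked genes (68.6 to 234 CPM summed) than MN1_KO (8.08 to 19.2) or the aged groups (at most 0.153). Xist, the RNA of the inactive X chromosome, was low in replicates 2 and 4 of MN1_WT (17.6 and 2.37 CPM) and reached 3350 CPM in the other MN1_WT library, beside 587 to 4010 in MN1_KO and 485 to 902 in the aged libraries. These differences in X- and Y-linked transcripts also run between the aged and MN1 experiments and between MN1_WT and MN1_KO, and cannot be told apart from the labelled conditions there. The blood cell marker Ptprc was present in every library, at 418 to 1400 CPM.

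Per length of transcript, the most abundant members in aged_WT were Ifi27l2a, a small membrane protein gene strongly induced by interferon (504 ± 200 TPM, SD, n = 3), Bst2, which encodes the virus tether tetherin (162 ± 13 TPM), and Sp100, a nuclear body gene (157 ± 15 TPM). The least abundant were Mx2, a dynamin-like GTPase gene (1.97 ± 0.16 TPM), and Ifi44 (1.63 ± 0.37 TPM). Bst2 and Sp100 did not differ beyond their spread in that group. In aged_KO Sp100 had the highest mean (148 ± 30 TPM), followed by Samd9l (103 ± 29 TPM) and Ifi27l2a (97.3 ± 34 TPM). None of these differed from another beyond their spread. In MN1_KO the order was Sp100 (260 ± 21 TPM), Ifi27l2a (220 ± 220 TPM) and Bst2 (180 ± 44 TPM), and the spread of Ifi27l2a covered both others. Reads of Ifit1, Ifit3, Ifit3b, Oas1a, Oas3, Xaf1, Dtx3l, Trim30a, Slfn5, Slfn8 and Sp100 had non-whole expected counts in 11 or 12 of the 12 libraries, and those of Mx1, Mx2, Eif2ak2, Trim25 and Rsad2 in 1 to 8. Such counts share reads between similar or overlapping transcripts, so values of these genes are uncertain to that extent. Mx2 is annotated as a polymorphic pseudogene in GENCODE M21.

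**Figure D1:**
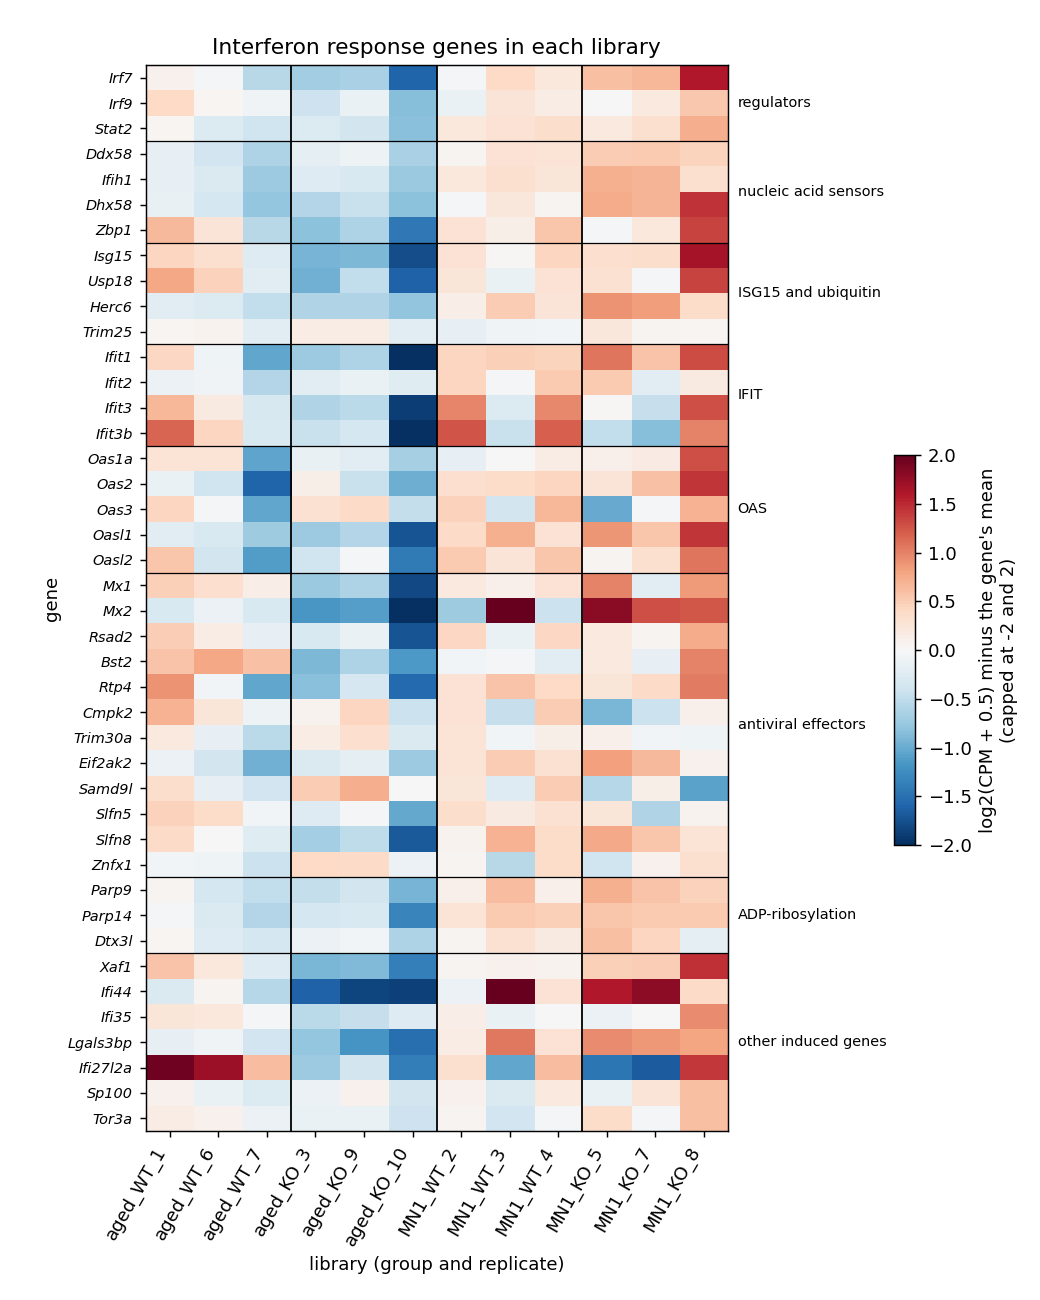
Level of each of the 42 genes (rows, by role) in each of the 12 libraries (columns, by group and replicate), as log2(CPM + 0.5) minus the gene's mean over the libraries, with colours capped at -2 and 2. The aged_KO_10 column is the lowest of the 12 libraries for 30 genes, and the MN1_KO_8 column is the highest for 21.

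The knockout was first compared with wild type in the aged marrow. Of the 42 genes, 10 were lower in aged_KO and 0 higher (edgeR quasi-likelihood test, adjusted p under 0.05, n = 3 and 3), while 15.8% of the 12771 genes tested were lower and 15.6% higher. The genes that fell were Bst2, Ifi44, Xaf1, Lgals3bp, Isg15, Ifi35, Mx1, Ifi27l2a, Usp18 and Mx2. The median log2 fold change of the 42 was -0.44, against -0.02 over all genes tested, and 33 of the 42 had a value below 0 (52.4% of all). With 1 library left out the members' median ran from -0.63 (without aged_WT replicate 7) to -0.25 (without aged_KO replicate 10). In 18 of the 42 every aged_KO library lay under every aged_WT library, as in 25.9% of all genes, and in 0 did every knockout library lie above (22.4% of all). At an unadjusted p under 0.05, 17 were lower and 1, Znfx1, was higher (22.2 and 21% of all).

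Among the regulators, none of 3 passed the threshold. Irf7, the transcription factor gene that amplifies interferon production (chromosome 7, 141262706 to 141266481, minus strand, mm10), stood at 88.0, 81.0 and 56.3 CPM in aged_WT and 50.9, 52.7 and 26.8 in aged_KO. The groups did not overlap, and the log2 fold change was -0.77 ± 0.28 (SE, edgeR adjusted p = 0.08). Irf9, the DNA-binding subunit gene of ISGF3, stood at 122, 95.5 and 88.0 CPM against 69.5, 84.5 and 51.3 (-0.55 ± 0.19, edgeR adjusted p = 0.0607). Its groups also did not overlap. Stat2, the subunit gene used by type I and type III interferon, stood at 65.4, 52.8 and 48.5 CPM against 52.7, 49.2 and 35.6 (-0.26 ± 0.17, edgeR adjusted p = 0.263). These groups overlapped. Under DESeq2 Irf7 and Irf9 passed (adjusted p = 0.0143 and 0.0305), and with library totals in place of TMM both passed as well (0.0385 and 0.011 by edgeR).

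Of the 4 genes of the ISG15 and ubiquitin group, 2 fell. Isg15 encodes a ubiquitin-like protein that is attached to newly made proteins (chromosome 4, 156199424 to 156200818, minus strand, mm10). It stood at 25.3, 23.4 and 15.5 CPM in aged_WT and 9.51, 9.79 and 5.08 in aged_KO, a log2 fold change of -1.37 ± 0.27 (edgeR adjusted p = 0.0077). Every knockout library lay below every wild-type one. Usp18, which encodes the protease that removes ISG15 and restrains the receptor, stood at 26.1, 20.9 and 13 CPM against 7.52, 10.6 and 4.59 (-1.36 ± 0.34, edgeR adjusted p = 0.0208). The Usp18 groups did not overlap, but its call was lost without aged_WT replicate 1 (edgeR adjusted p = 0.054), aged_WT replicate 6 (0.063) or aged_KO replicate 3 (0.0732). The ISG15 ligase gene Herc6 (-0.33 ± 0.13, edgeR adjusted p = 0.0748) and Trim25, which ubiquitinates the RNA sensor RIG-I, did not pass.

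Of the 12 antiviral effector genes, 3 fell. Bst2, whose product holds budding virus at the cell surface (chromosome 8, 71534255 to 71537456, minus strand, mm10), had the smallest p of the 42. It stood at 79.1, 91.2 and 79.4 CPM in aged_WT and at 28.3, 34.5 and 23.7 in aged_KO, a log2 fold change of -1.51 ± 0.15 (edgeR adjusted p = 0.000398). The lowest wild-type library was well above the highest knockout library. Mx1, a dynamin-like GTPase gene, stood at 21.9, 19.8 and 17.1 CPM against 9.09, 9.96 and 4.09 (-1.31 ± 0.29, edgeR adjusted p = 0.0117). Its relative Mx2 was low throughout, at 3.27, 3.80 and 3.27 CPM against 1.56, 1.67 and 0.359 (-1.45 ± 0.42, edgeR adjusted p = 0.0282). Both GTPase genes lay lower in all 3 knockout libraries, but the Mx2 call was lost without aged_WT replicates 1, 6 or 7 or aged_KO replicate 3, each left out in turn (edgeR adjusted p = 0.0539, 0.0819, 0.0647 and 0.0547). Znfx1, a helicase gene (0.43 ± 0.16, edgeR adjusted p = 0.0673), and Samd9l, a growth-restraining gene (0.49 ± 0.24, edgeR adjusted p = 0.148), had values above 0 without passing. Znfx1 passed under DESeq2, Samd9l passed without aged_WT replicate 1, and both passed without aged_KO replicate 10.

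The largest share of calls lay among the other induced genes, where 5 of 7 fell. Ifi44, a low-abundance gene of unclear biochemical function (chromosome 3, 151730922 to 151749960, minus strand, mm10), stood at 3.35, 4.37 and 2.65 CPM in aged_WT and at 1.02, 0.816 and 0.776 in aged_KO (-1.96 ± 0.30, edgeR adjusted p = 0.00214). Xaf1, which encodes an antagonist of the apoptosis inhibitor XIAP (chromosome 11, 72301629 to 72313733, plus strand, mm10), stood at 28.4, 22.0 and 15.8 CPM against 9.88, 10.1 and 7.09 (-1.26 ± 0.23, edgeR adjusted p = 0.00453). In both, the knockout libraries were close together and all below the wild type. Lgals3bp, a secreted galectin-binding glycoprotein gene, stood at 87.9, 94.0 and 75.3 CPM against 57.4, 43.2 and 34.2 (-0.92 ± 0.18, edgeR adjusted p = 0.00644). Ifi27l2a stood at 197, 167 and 78.1 CPM against 30.6, 39.3 and 19.1, and its fall of 2.28 ± 0.43 on the log2 scale was the largest of the 42 (edgeR adjusted p = 0.0119). Ifi35 stood at 41.8, 40.8 and 34.8 CPM against 24.1, 25.6 and 29.6 (-0.55 ± 0.12, edgeR adjusted p = 0.00828). Neither group pair overlapped in these 3 genes, and Ifi35 moved least. Sp100 and Tor3a, an endoplasmic reticulum ATPase gene, did not pass.

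In 4 of the 8 role groups, besides the regulators, no member passed. The 4 IFIT genes, whose products bind viral RNA, had a median of -1.02, and Ifit2 was the only one of them above 0. Ifit3b had a value of -1.38 ± 0.59 (edgeR adjusted p = 0.124) and Ifit3 of -1.13 ± 0.41 (0.0762). The 5 OAS family genes, most of them coding for sensors of double-stranded RNA that activate RNase L, ran from -0.53 to 0.24, and none of them separated the groups. The 4 nucleic acid sensor genes had a median of -0.11: Ddx58 (RIG-I), Ifih1 (MDA5) and Dhx58 (LGP2) lay near 0, and Zbp1, the sensor of Z-form nucleic acid, at -1.11 ± 0.34 (edgeR adjusted p = 0.051). The 3 ADP-ribosylation genes Parp9, Parp14 and Dtx3l ran from -0.32 to -0.05. A fit that took the spread from all 12 libraries called 2 genes lower in place of 10, Bst2 and Xaf1, while DESeq2 called 16 and library totals 19. The share of all genes called was not counted under these settings. TMM factors over the 12 libraries were 0.82 to 0.912 in aged_KO and 0.947 to 0.996 in aged_WT. Library totals therefore set aged_KO values lower relative to aged_WT.

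**Figure D2:**
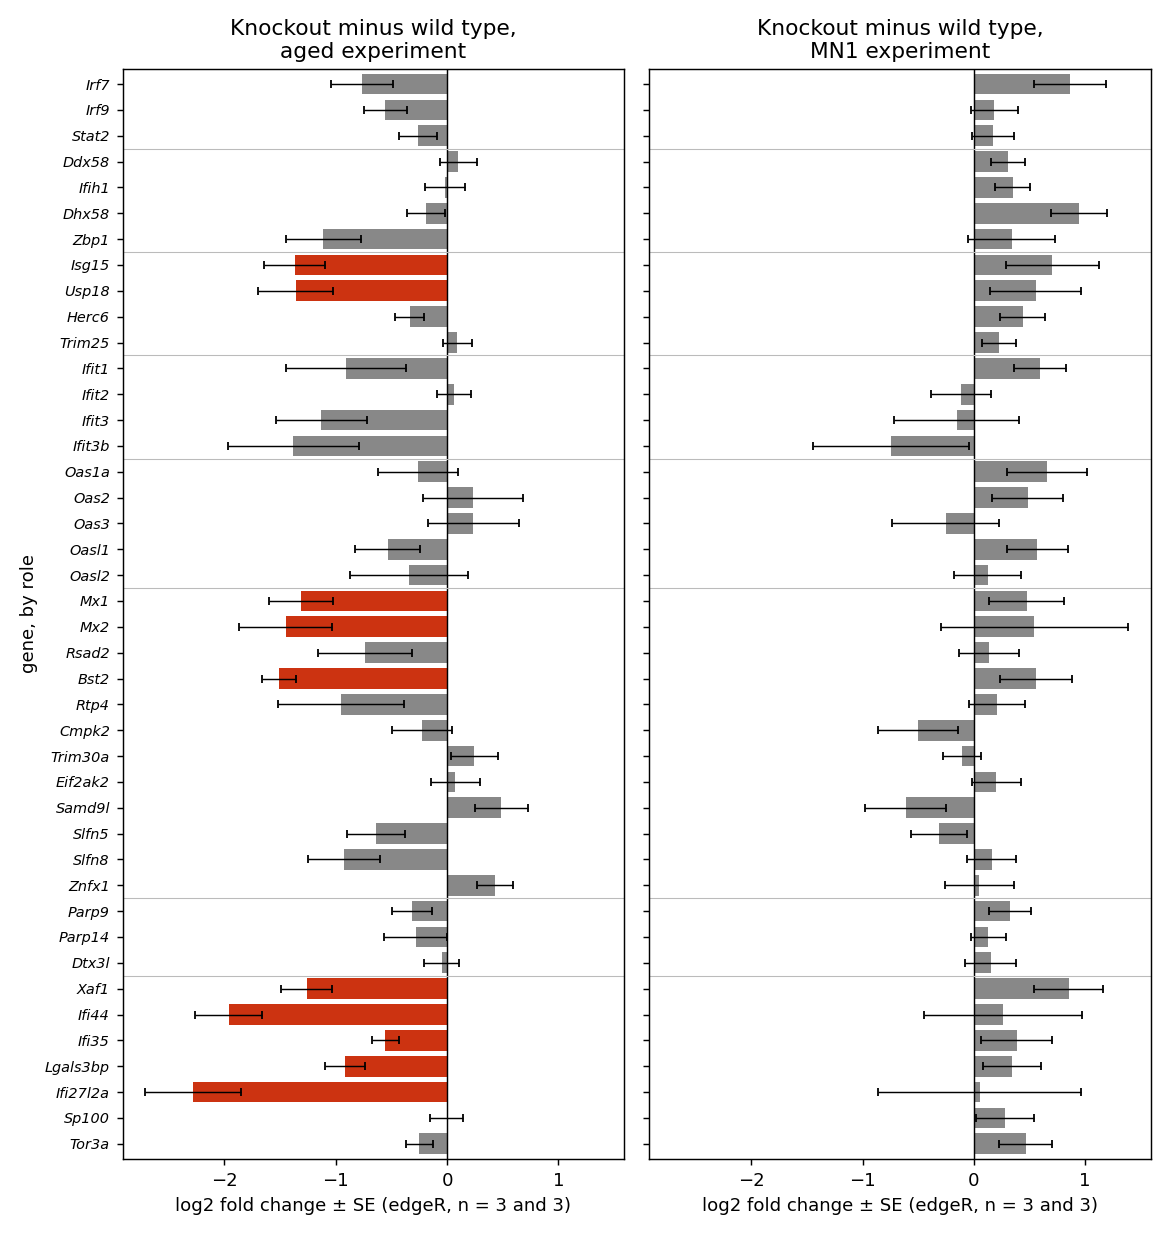
Log2 fold change of knockout against wild type for each of the 42 genes, by role, with the standard error as a whisker (edgeR, 3 and 3 libraries). The left panel is the aged experiment and the right panel the MN1 experiment, and red bars have an adjusted p under 0.05. The 10 red bars are all in the left panel and all lie below 0.

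The rest of the pathway was read from lists of further genes. Of 20 type I and type III interferon genes in the tables, 17 were listed at 0 in all 12 libraries, and 3 (Ifnb1, Ifnab and Ifnz) had any count. Ifnb1 had 1 count in MN1_WT, and Ifnz had 7.05, 0, 5.06 and 11.42 expected counts in aged_WT, aged_KO, MN1_WT and MN1_KO. A count of 0 allows a level of up to 3 counts per library, 0.106 to 0.181 CPM, so ligand transcription below that was not detectable. Ifng, the type II ligand gene, fell in aged_KO, from 1.53, 1.94 and 4.79 CPM to 0.481, 0.472 and 0.565 (-2.43 ± 0.49, edgeR adjusted p = 0.0068). The type I receptor genes were close to level: Ifnar1 had a log2 fold change of 0.12 ± 0.12 and Ifnar2 of 0.07 ± 0.11, and neither passed. Of 13 receptor and JAK-STAT genes, Socs3, a feedback inhibitor of cytokine receptors (1.26 ± 0.17), Stat3 (0.68 ± 0.12) and the phosphatase gene Ptpn11 (0.31 ± 0.10) rose. Socs1, the feedback inhibitor of interferon receptors, fell (-0.78 ± 0.24). Over all genes tested 15.6% rose and 15.8% fell.

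Of 20 genes that lead to interferon production, 4 rose and 4 fell in aged_KO, against 15.6% of all genes tested higher and 15.8% lower. The adaptor gene Myd88 (0.87 ± 0.11) and the kinase gene Ikbke (0.98 ± 0.18) rose, and the DNase gene Trex1 fell (-0.81 ± 0.15). Of 39 tested interferon-induced genes outside the 42, 15 fell (15.8% of all) and 3 rose (15.6% of all), with a median of -0.46. Among them Pml, the organiser of nuclear bodies, stood at 85.2, 102 and 111 CPM in aged_WT and 55.1, 53.5 and 48.0 in aged_KO (-0.92 ± 0.12, edgeR adjusted p = 0.00125). The GTPase gene Ifi47 (-0.92 ± 0.15), Epsti1 (-1.15 ± 0.20) and the exonuclease gene Isg20 (-0.98 ± 0.17) also fell.

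Markers of the cell types in marrow moved in the same comparison, where 15.8% of all genes tested fell and 15.6% rose. The 13 plasmacytoid dendritic cell markers summed to 860.2 to 1066 CPM in aged_WT and 197.1 to 317.3 in aged_KO, and 12 of the 13 fell. Siglech, a defining receptor gene of these cells, stood at 83.1, 74.9 and 93.3 CPM against 17.6, 26.2 and 7.13. The 14 B cell markers summed to 605.5 to 1254 CPM against 37.14 to 59.18, and all 14 fell. Of 13 T and NK cell markers 12 fell, of 8 plasma cell markers 7 fell, and of 14 monocyte and macrophage markers 3 fell. All 8 megakaryocyte and platelet markers fell (median -1.87), as did 8 of 11 erythroid markers (median -1.52). The 16 neutrophil markers summed to 86440 to 116300 CPM in aged_WT and 124400 to 164400 in aged_KO, and 11 of them rose. The part of these shifts in the interferon gene values was not tested. In bulk marrow, fewer cells of a type and less RNA per cell cannot be told apart.

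Within aged_WT, replicate 7 had the highest plasmacytoid dendritic cell and B cell sums of its group (1066 and 1254 CPM) and the lowest sum over the 42 genes (2255 CPM, against 3659 and 3002 in replicates 1 and 6). In replicates 1, 6 and 7 the neutrophil sums were 116300, 104700 and 86440 CPM, in the same order as the sums over the 42 genes, and the erythroid sums were 1845, 3649 and 7399 CPM, in the opposite order. In aged_KO replicates 3, 9 and 10 the sums over the 42 genes were 2766, 3013 and 1896 CPM, which overlapped those of aged_WT. There the neutrophil sums were 124400, 164400 and 155300 CPM, in another order. The erythroid sums were 1040, 1311 and 741.2 CPM, in the same order as the sums over the 42 genes. The part of these marker differences in the sums over the 42 genes was not tested. Samd9l and Sp100, among the highest members by CPM (242 to 520 and 234 to 322 in the aged libraries), are part of the sums over the 42 genes and did not pass.

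**Figure D3:**
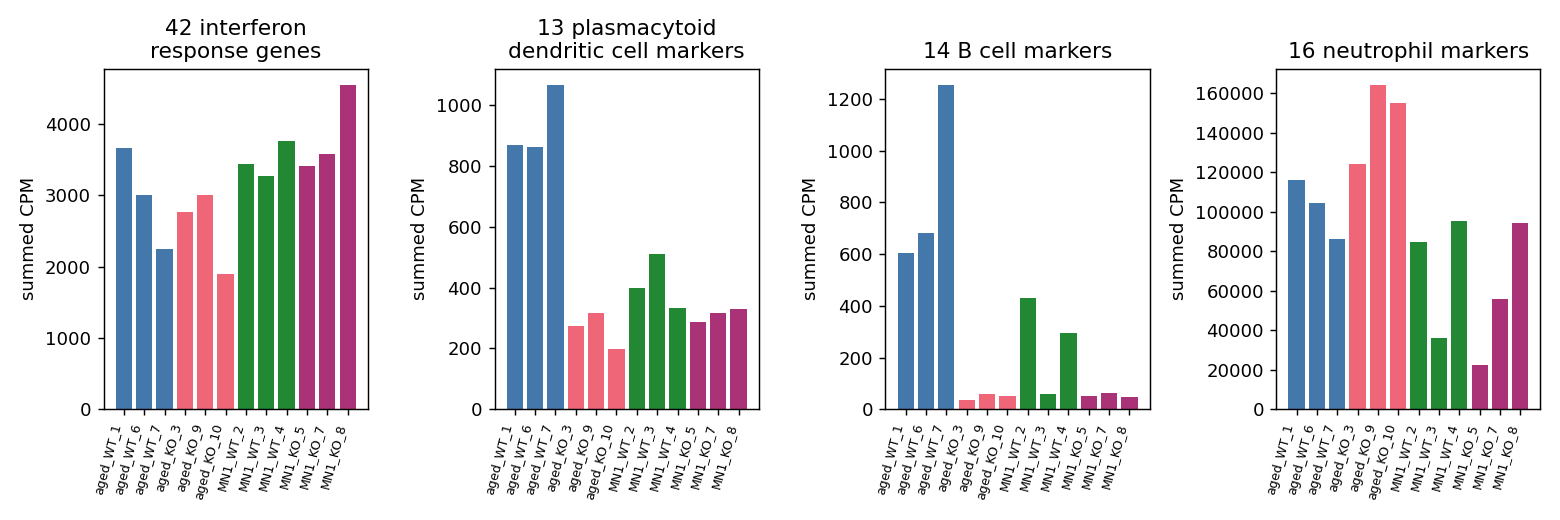
Summed CPM in each of the 12 libraries for the 42 interferon response genes and for the markers of plasmacytoid dendritic cells (13 genes), B cells (14) and neutrophils (16). Bars start at 0 and are coloured by group. The plasmacytoid dendritic cell sums separate aged_WT (860.2 to 1066) from aged_KO (197.1 to 317.3), while the interferon gene sums of these groups overlap (2255 to 3659 and 1896 to 3013).

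Libraries of 1 group differed from each other in many members at once. Replicate 7 was the lowest aged_WT library for 41 of the 42 genes (38.4% of all genes), and replicate 1 the highest for 36 (35.8% of all). Replicate 10 was the lowest aged_KO library for 41 (40.3% of all), and replicate 9 the highest for 34 (35.3% of all). The median coefficient of variation of the 42 was 22% in aged_WT and 25.1% in aged_KO, where that of all genes was 10.5 and 14.3%. In MN1_WT it was 14.1% against 23.1% for all genes, and in MN1_KO 29.8% against 26.2%. Ifit1 in aged_WT shows the size of this spread, with 28, 19.7 and 9.88 CPM in replicates 1, 6 and 7. Leaving out 1 library at a time gave 8 to 11 members called lower in aged_KO, and the share of all genes was not counted there.

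In the MN1 experiment none of the 42 genes passed in the knockout against the wild type (0 higher and 0 lower by edgeR, as for 0% of the 13525 genes tested in each direction). At an unadjusted p under 0.05, 4 were higher and 0 lower (4.2 and 5.8% of all). DESeq2 called 1, Dhx58, higher, and the share of all genes was not counted there. The median log2 fold change was 0.27, against 0.03 over all genes, and 34 of the 42 values were above 0 (53.2% of all). In 8 genes every MN1_KO library lay above every MN1_WT library (6.94% of all), and in 0 below (8.64% of all). With replicate 3 as the only MN1_WT library, the median was 0.36 and again 0 passed. With 1 library left out the median ran from 0.11 (without MN1_KO replicate 8) to 0.28.

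The 6 genes with the smallest p in that comparison were 2 sensor genes, Irf7 and 3 others, and none passed. Dhx58, a regulator of the RNA sensors, stood at 38.8, 46.5 and 41.4 CPM in MN1_WT and at 66.8, 63.9 and 109 in MN1_KO (0.94 ± 0.25, edgeR adjusted p = 0.284). Irf7 stood at 81.5, 109 and 95.5 CPM against 126, 132 and 252 (0.86 ± 0.32, edgeR adjusted p = 0.425). Xaf1 stood at 19.8, 20.1 and 20 CPM against 26.6, 26.8 and 52.9 (0.85 ± 0.31, edgeR adjusted p = 0.427). None of these 3 genes overlapped between the groups, and replicate 8 was the highest knockout library in Irf7, Xaf1 and Dhx58. Without that library the log2 fold changes were 0.45 for Irf7, 0.43 for Xaf1 and 0.65 for Dhx58. Ifit1, an RNA cap-binding gene, stood at 28.3, 29.2 and 28.7 CPM against 44.4, 31.1 and 52.5 (0.59 ± 0.23, edgeR adjusted p = 0.451). Ifih1, the long double-stranded RNA sensor gene, stood at 52.4, 56.2 and 53.5 CPM against 74.1, 72.7 and 56.6 (0.35 ± 0.16, edgeR adjusted p = 0.551). Herc6 stood at 33.8, 44.2 and 36.9 CPM against 58.0, 55.4 and 39.9 (0.44 ± 0.20, edgeR adjusted p = 0.55). Ifit1 and Ifih1 separated the groups narrowly, and Herc6 overlapped.

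The other regulators lay nearer 0. Irf9 stood at 84.1, 111 and 103 CPM in MN1_WT and 91.8, 106 and 135 in MN1_KO (0.18 ± 0.21, edgeR adjusted p = 0.837). Stat2 stood at 74.2, 78.0 and 81.2 CPM against 73.2, 80.2 and 106 (0.17 ± 0.19, edgeR adjusted p = 0.831). Both overlapped between the groups. Ifnar1 and Ifnar2 had log2 fold changes of -0.03 ± 0.18 and -0.02 ± 0.19.

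By more than 2-fold, MN1_WT replicate 3 stood apart from its group in few members, a smaller share than over all genes in either direction. MN1_WT replicate 3, the library with the high Mn1 level, stood more than 2-fold above replicates 2 and 4 for Mx2 (21 CPM, against 2.34 and 2.93) and Ifi44 (20.7, against 3.83 and 5.22), 2 of 42 members against 13.3% of all genes. It stood more than 2-fold below them for Ifit3 (14.4 CPM, against 34.7 and 34.3), Ifit3b (4.84, against 16.8 and 16.2) and Ifi27l2a (24.6, against 63.8 and 78.2), 3 of 42 against 9.57%. In these 5 genes MN1_KO replicates 5 and 7 lay on the same side as MN1_WT replicate 3: Mx2 stood at 15.7 and 10.9 CPM there, Ifi44 at 13.7 and 15.6, and Ifi27l2a at 18.4 and 15.7. MN1_KO replicate 8 departed from them with 5.59 CPM of Ifi44 and 136 of Ifi27l2a. That library was the highest of the 12 for 21 members (13.3% of all genes), and MN1_KO replicate 5 for 9 (14.3%). Neutrophil markers summed to 94300 CPM in replicate 8 and to 22440 and 55850 in replicates 5 and 7, and to 36120 in MN1_WT replicate 3 beside 84720 and 95370 in its group. The part of this marker difference in the values was not tested.

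**Figure D4:**
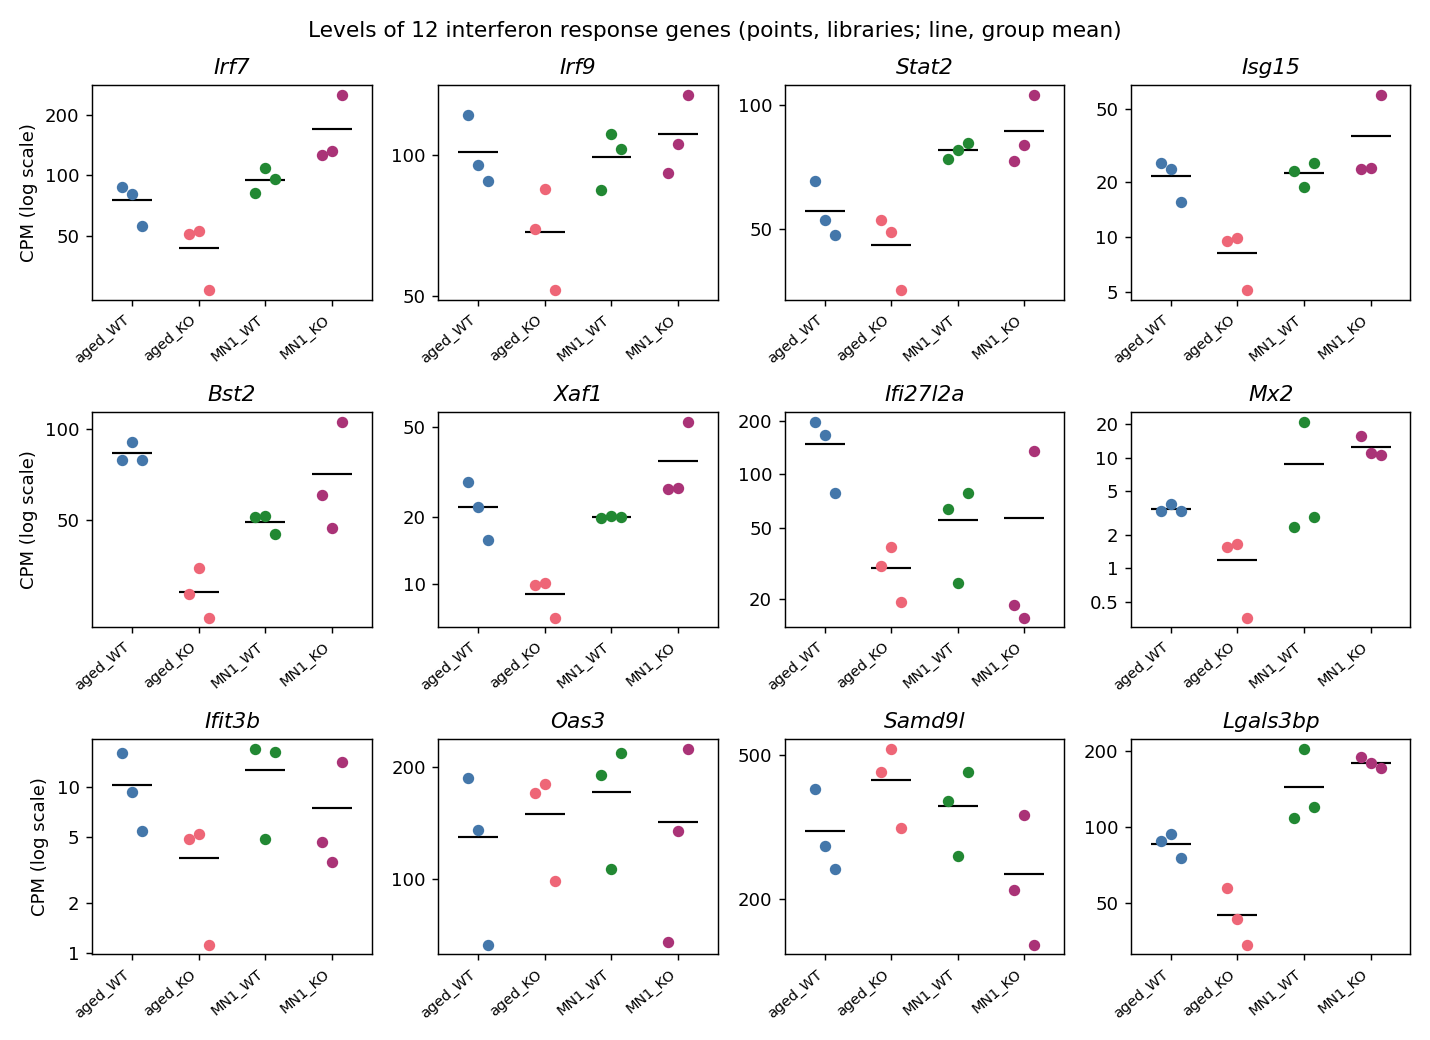
CPM on a log axis of 12 of the 42 genes in the 4 groups, each point a library and each line the mean of 3. Bst2 and Xaf1 have all 3 aged_KO points below all 9 other points. Ifi27l2a and Mx2 show MN1_WT replicate 3 apart from the other MN1_WT points.

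Whether the knockout effect itself differed between the experiments was tested as 1 contrast over the 12 libraries. The difference passed for 2 of the 42 genes, Bst2 and Xaf1, both with a more positive effect in the MN1 experiment (1.41% of 13937 genes passed in that direction and 1.92% in the other). Bst2 stood at 51.2, 51.7 and 45.1 CPM in MN1_WT and 60.6, 47.1 and 106 in MN1_KO, so that its groups overlapped there, while they stood apart in the aged marrow. Its effects differed by 2.06 ± 0.36 on the log2 scale (edgeR adjusted p = 0.0198). Xaf1 differed by 2.11 ± 0.42 (edgeR adjusted p = 0.0278). Of the 12 fits with 1 library left out, Bst2 was lost in 6 and Xaf1 in 8: Bst2 was lost without aged_WT replicate 6 or 7, aged_KO replicate 3 or 9, or MN1_WT replicate 2 or 4 (edgeR adjusted p = 0.0502 to 0.0683), and Xaf1 without any of these or without aged_WT replicate 1 or aged_KO replicate 10 (0.0507 to 0.0894). With replicate 3 as the only MN1_WT library neither passed (edgeR adjusted p = 0.185 and 0.218), although the differences were 1.96 and 2.07.

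The median difference over the 42 genes was 0.75, against 0.08 over all genes, and 36 of the 42 were above 0 (54.7% of all). At an unadjusted p under 0.05, 17 were higher and 1 lower, against 11 and 11.2% of all. The next smallest p belonged to Isg15 (2.07 ± 0.54, edgeR adjusted p = 0.06), Mx1 (1.79 ± 0.49, 0.0699), Lgals3bp (1.25 ± 0.35, 0.0719) and Irf7 (1.62 ± 0.45, 0.0722). In the MN1 libraries Isg15 stood at 22.8, 18.8 and 25.3 CPM in MN1_WT and 23.5, 23.9 and 59.9 in MN1_KO. Mx1 stood at 17.8, 16.7 and 19.0 CPM against 31.2, 13.3 and 28.4, and Lgals3bp at 109, 204 and 120 against 189, 179 and 171. All 3 overlapped between the MN1 groups. Without MN1_WT replicate 3, 10 members passed, among them Irf7, Isg15, Mx1 and Lgals3bp. That fit kept only MN1_WT replicates 2 and 4, where Mn1 stood at 0.383 and 0.158 CPM. The share of all genes that passed in it was not counted. With all 12 libraries, Pml (0.93 ± 0.19, edgeR adjusted p = 0.0278) and Trim34a (1.30 ± 0.31, 0.0484) of the further interferon-induced genes passed as more positive. Of the receptor and JAK-STAT genes, Socs3 (-2.81 ± 0.41, edgeR adjusted p = 0.0114) and Stat3 (-1.03 ± 0.22, 0.0359) passed in the other direction.

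Between the wild-type groups, MN1_WT against aged_WT, 0 members passed in either direction by edgeR, against 1% of all genes higher and 2.58% lower. At an unadjusted p under 0.05, 12 were higher and 1, Bst2, was lower (12.5 and 11.9% of all). DESeq2 called 5 higher and 1 lower, and the share of all genes was not counted there. The median was 0.32, against 0.06 over all genes, and 31 values were above 0 (54.6% of all). With 1 library left out it ran from 0.09 (without aged_WT replicate 7) to 0.51 (without aged_WT replicate 1). In 14 genes MN1_WT lay wholly above aged_WT (18.4% of all) and in 1 wholly below (19.4%). The 6 genes with the smallest p lay above 0: Herc6 (0.63 ± 0.17, edgeR adjusted p = 0.0635), Ddx58 (0.59 ± 0.16, 0.0697), Ifih1 (0.65 ± 0.18, 0.0708), the kinase gene Eif2ak2, which encodes PKR (0.81 ± 0.24, 0.0847), Lgals3bp (0.75 ± 0.24, 0.102) and Parp14 (0.71 ± 0.24, 0.11). Eif2ak2 stood at 72.6, 60.7 and 40.2 CPM in aged_WT and 95.1, 112 and 97.4 in MN1_WT. Ddx58 stood at 78.8, 67.2 and 57.3 CPM against 91.6, 108 and 106, and Parp14 at 121, 101 and 82.5 against 150, 177 and 172. Herc6 stood at 26.7, 25.6 and 21.8 CPM in aged_WT and Ifih1 at 40, 36.6 and 26.9, below the MN1_WT values given above. Each of these 5 genes separated the groups. With replicate 3 as the only MN1_WT library the log2 fold changes were 1.26 for Lgals3bp and 0.84 for Herc6, and the median of the members fell to 0.11.

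Between the knockout groups most members passed. In MN1_KO 26 of the 42 were higher than in aged_KO and 0 lower by edgeR, against 21.1% of all genes higher and 16.8% lower. With 1 library left out 20 to 24 were higher, and the share of all genes was not counted there. The median was 1.04, against 0.08 over all genes, and 37 of the 42 values were above 0 (54.1% of all). At an unadjusted p under 0.05, 31 were higher and 1 lower (27.8 and 22.1% of all). In 30 of the 42 every MN1_KO library lay above every aged_KO library (27.7% of all), and in 0 below (22.4%). All 3 regulators and all 4 nucleic acid sensor genes rose. So did 3 of 4 in the ISG15 and ubiquitin group, 2 of 3 ADP-ribosylation genes, 5 of 7 other induced genes, 6 of 12 antiviral effectors, 2 of 5 OAS genes and 1 of 4 IFIT genes. This comparison shares its aged_KO libraries with the aged comparison, and aged_KO replicate 10 was the lowest of the 12 libraries for 30 members (11.1% of all genes), so a low value there enters both.

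Irf7 had a log2 fold change of 1.97 ± 0.33 in that comparison (edgeR adjusted p = 0.00291) and Stat2 of 0.91 ± 0.19 (0.00589). Irf9 rose by 0.69 ± 0.22 (edgeR adjusted p = 0.0287), a call lost without aged_KO replicate 3 or 10 or MN1_KO replicate 7 or 8 (0.0625 to 0.0924). Herc6, with the smallest p, stood at 20.2, 20.3 and 17.6 CPM in aged_KO, below all 3 MN1_KO libraries (1.40 ± 0.17, edgeR adjusted p = 0.00105). Lgals3bp rose by 2.00 ± 0.25 (edgeR adjusted p = 0.00105), from at most 57.4 CPM to at least 171. Dhx58 stood at 26.4, 29.0 and 22.2 CPM in aged_KO and rose by 1.62 ± 0.23 (edgeR adjusted p = 0.00161). Its fellow sensor Ifih1 stood at 37.6, 36.3 and 26.8 CPM and rose by 1.01 ± 0.18 (edgeR adjusted p = 0.0037). Both sensor genes separated the groups in full.

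Oasl1, an OAS-like gene whose product restrains Irf7 translation, stood at 10.5, 11.6 and 5.01 CPM in aged_KO and 33.1, 26.3 and 48.7 in MN1_KO (1.99 ± 0.33, edgeR adjusted p = 0.00274). Parp9, a partner of the ubiquitin ligase DTX3L, stood at 46.9, 50.6 and 34.2 CPM against 108, 98.1 and 90.7 (1.17 ± 0.21, edgeR adjusted p = 0.00333). Its gene overlaps that of Dtx3l head to head on the opposite strand. Ifi44 had the largest log2 fold change of the 42, 3.73 ± 0.67 (edgeR adjusted p = 0.00366). Xaf1 (1.97 ± 0.30, edgeR adjusted p = 0.00213), Isg15 (2.13 ± 0.40, 0.00417) and Bst2 (1.30 ± 0.26, 0.00531) also rose, and their lowest MN1_KO library lay above the highest aged_KO library. Members that did not pass included Ifit3b, Oas3, Cmpk2, Trim30a, Trim25 and Znfx1. Samd9l stood at 449, 520 and 315 CPM in aged_KO and 211, 342 and 149 in MN1_KO (-0.87 ± 0.33, edgeR adjusted p = 0.0569), and it passed as lower under DESeq2, with RLE scaling and without MN1_KO replicate 7.

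Of the 39 further interferon-induced genes tested, 15 rose and 0 fell between the knockout groups, with a median of 0.56. Over all genes tested 21.1% rose and 16.8% fell. The 15 included Ifi47 (1.42 ± 0.21), the GTPase-like gene Gm12250 (2.29 ± 0.35) and Oas1b (2.02 ± 0.34). Of the 13 receptor and JAK-STAT genes 1 rose and 6 fell: Socs3 went from 93.0, 121 and 83.0 CPM to 12.1, 9.44 and 15.2 (-3.01 ± 0.30, edgeR adjusted p = 0.000545), and Stat3 fell by 1.21 ± 0.16. Ifnar1 and Ifnar2 did not pass. Marker sums differed here as well: 12 of 16 neutrophil markers were lower in MN1_KO (22440 to 94300 CPM summed, against 124400 to 164400), and plasmacytoid dendritic cell sums were close (287.5 to 330.9, against 197.1 to 317.3), although Siglech was nearly absent from MN1_KO, at 0.47 to 0.835 CPM. The part of these shifts in the interferon gene values was not tested.

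In the aged comparison 2 of the 15 genes with an ISRE match in the window fell (Bst2 and Isg15), as did 4 of the 16 without one, against 15.8% of all genes tested, with medians of -0.63 and -0.34. Between the knockout groups 8 of 15 and 8 of 16 rose, against 21.1% of all, with medians of 0.97 and 0.74. These are counts within 300-base windows, for the 31 genes with a window, and no test was made of the split.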

How the data were processed

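Bulk bone marrow mRNA was sequenced in 12 libraries of 4 groups of 3. The authors deposited 2 tables of RSEM expected counts, TPM and FPKM per gene, made with Bowtie2 2.3.4.3 and RSEM 1.2.28 on mm10, per the submitters' processing notes. The gene annotation used for counting is not given in the sources used here. The expected counts were rounded to whole numbers. The deposited TPM served only to order genes by level, and the deposited FPKM were not used.

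Knockout was compared with wild type within each table (6 libraries), and the other contrasts were taken from all 12 libraries, with edgeR 4.0.16 (R 4.3.3, filterByExpr, TMM, robust quasi-likelihood test, Benjamini-Hochberg adjustment over all genes tested, threshold 0.05). DESeq2 1.42.0 was an alternative, beside other scalings, low-count filters, a shared spread, MN1_WT replicate 3 alone and each library left out in turn. The scripts were tested on simulated data. Replicate pairs differed by more than sampling noise (chi-square per degree of freedom 16.9 to 380). Positions are from GENCODE M21 (mm10).

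The members and lists were chosen with earlier results of these data known. Values in every library are given for Irf7, Irf9 and Stat2, for up to 12 members past the threshold per comparison by smallest adjusted p, and, where fewer than 3 passed, for the 6 with the smallest p. Genes of the other lists are the up to 4 with the smallest adjusted p, and named receptors and ligands. Some results are not reported here. Further members are named for their role.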

Additional observations from a re-analysis of the deposited data

Results flagged for a closer look

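For 2 genes the effect of the Hopx knockout differed between the MN1 and the aged experiment by a test of the difference itself (edgeR, adjusted over 13937 genes). The knockout effect on Bst2 was 2.06 higher on the log2 scale in the MN1 experiment, being 0.56 ± 0.32 there and -1.51 ± 0.15 in the aged one. The effect on Xaf1 was 2.11 higher, being 0.85 ± 0.31 and -1.26 ± 0.23. Without MN1_KO replicate 8 the Xaf1 effect in the MN1 experiment was 0.43. Bst2 stood at 60.6, 47.1 and 106 CPM in MN1_KO replicates 5, 7 and 8, against 51.2, 51.7 and 45.1 in MN1_WT. These groups overlapped, and replicate 8 was the highest. Only replicate 3 of MN1_WT carried a high Mn1 level (30.5 CPM), and the other libraries of that group did not exceed 0.383. Fitted with replicate 3 alone, its group's spread being assumed, the differences were 1.96 for Bst2 and 2.07 for Xaf1. With 1 of the 12 libraries left out, the difference no longer passed in 6 fits for Bst2 and in 8 for Xaf1. MN1 label, age, table and the levels of Xist and Y-linked transcripts change between the experiments and cannot be told apart.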

How the results depend on the processing

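No paired analysis was possible because the groups compared share fewer than 2 replicate numbers. The 10 members lower in aged_KO became 19 with library totals, 16 with DESeq2, 2 with the spread from all 12 libraries, and 8 to 11 with 1 library left out. The share of all genes passing was not counted under any alternative setting. Members higher in aged_KO became 1 with DESeq2 and 0 to 2 with 1 library left out. In MN1_KO against MN1_WT, 1 was higher with DESeq2 and 0 to 1 with 1 library left out. For the difference of the knockout effects, 2 higher became 6 with library totals, 9 with DESeq2, 0 with MN1_WT replicate 3 alone, and 0 to 10 with 1 library left out. For MN1_WT against aged_WT, 5 were higher and 1 lower with DESeq2, and 4 higher with MN1_WT replicate 3 alone. For MN1_KO against aged_KO, 1 was lower with RLE scaling, 1 with DESeq2, and 0 to 1 with 1 library left out. Its 26 higher members became 20 to 24 with 1 library left out (median 0.80 to 1.26) and 34 with library totals, where the median of the 42 moved from 1.04 to 1.40, while that setting moved the median of all genes from 0.08 to 0.46. Reversals concerned values that had not passed. Stat2 in MN1_KO against MN1_WT ranged from -0.00729 (without MN1_KO replicate 8) to 0.252 with 1 library left out. Irf9 in MN1_WT against aged_WT was -0.04, and 0.135 with library totals, 0.129 with MN1_WT replicate 3 alone, and -0.131 to 0.115 with 1 library left out. The causes were not tested.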
